A study of Mus musculus with 8 samples.

Results

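The clustered histone genes are the genes that supply histone proteins while DNA is copied. They were taken as the mouse protein-coding genes whose older symbols start with Hist1, Hist2, Hist3 or Hist4. In the newer naming these are H1f1 to H1f5 and the genes named H2ac, H2bc, H3c or H4c with a number. The rule found 67 genes among 21631 protein-coding genes of the autosomes and the X chromosome. Of the 67, 62 also fit the newer naming and 5 fit only the older one: H1f6, H2aw, H2bu2, H4bc24 and H4f16. H4bc24 is counted as an H2B gene after its older symbol, Hist1h2br. By protein they were 6 genes for the linker histone H1, 18 for H2A, 18 for H2B, 12 for H3 and 13 for H4. The Hist1 cluster on chromosome 13 holds 54 of them, the Hist2 cluster on chromosome 3 holds 10, and the Hist3 locus on chromosome 11 holds 2. The single Hist4 gene, H4f16, is on chromosome 6. Most are short: the median length was 492 bp (range 375 to 37455), and 61 of the 67 were at most 1 kb long.

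The series has 8 samples of mouse dendritic cells, and 2 of them, ATAC-seq libraries, have processed files. ATAC-seq uses a transposase to cut and tag DNA that is accessible in nuclei, so a peak marks open chromatin. Both libraries are from cells labelled CD8-positive, left unstimulated and with no genotype given, grown in IMDM-glutamax medium with fetal calf serum, penicillin, streptomycin and β-mercaptoethanol. One label field names the spleen as the source and another a cell line, and nothing states that the replicates were separate cultures, so differences between them may be technical. The other samples are chromatin immunoprecipitations of IRF3 after poly(I:C), IRF5 after CpG oligonucleotide and IRF9 after IFN-beta, each at 90 min, and were not analysed here. With 1 group of 2 libraries there was no contrast between conditions and no test was made, and accessibility says nothing directly of RNA levels.

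The core histones H2A, H2B, H3 and H4, form the protein spool of the nucleosome, and H1 binds the DNA that enters and leaves it. The clustered genes are transcribed mainly in S phase. Most of their mRNAs end in a stem-loop instead of a poly(A) tail, which is bound by SLBP and cut with the help of the U7 small nuclear RNP. NPAT, a substrate of cyclin E and CDK2, gathers with CASP8AP2 (FLASH) at these genes in nuclear histone locus bodies and promotes their transcription. Some members, such as H1f6 (H1t), H2ac1 (TH2A) and H2bc1 (TH2B), are known as testis histones.

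Replicate 1 had 50950 peaks and replicate 2 had 58319. Total read numbers were not used here. Genome-wide backgrounds were 0.676 (replicate 1) and 1.28 (replicate 2) reads per position. The best summit of a peak held a median of 16 reads in the former and 22 in the latter. Of 12 marker genes of type 1 conventional dendritic cells, 7 (58.3%) had a peak in both replicates within 1 kb of an end, a share near the 47.8% of all coding genes. The highest was Flt3, a receptor for a dendritic cell growth factor, with fold enrichments of 12.4 and 13.4. Xcr1, a chemokine receptor of these cells, had 7.20 and 6.91. No such peak was found at Cd8a, which encodes the surface protein in the cells' label, or at Batf3, Clec9a, Itgae or Zbtb46. Of 26 markers of T, B, NK, neutrophil and erythroid cells, 7 (26.9%) had one.

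The promoters of the H2A and H2B members show the arrangement on which several results turn. Among members with a start in the RefSeq table, in 10 places an H2A gene and an H2B gene start back to back, with 163 to 280 bp between their starts (median 203.5 bp), so that 1 stretch of DNA is the promoter of both. H2ac6 with H2bc4 and H2ac20 with H2bc21 are neighbours too, and are not counted because the table has no start for H2bc4 or H2bc21. Below are 4 of these stretches in full, on the plus strand of GRCm38.p6 from RefSeq, which is the mm10 build. They are the pairs with the highest and the lowest fold enrichment by the mean of both replicates, a pair with an octamer, and the testis pair. Capitals mark CCAAT or its reverse complement ATTGG (the CAAT box), and TATAAA or TTTATA (letters of the TATA box, at any position). They also mark the octamer ATTTGCAT or its reverse complement ATGCAAAT, which POU2F1 (OCT1) is known to bind.
H2bc23/H2ac23, chr13:21810200-21810366: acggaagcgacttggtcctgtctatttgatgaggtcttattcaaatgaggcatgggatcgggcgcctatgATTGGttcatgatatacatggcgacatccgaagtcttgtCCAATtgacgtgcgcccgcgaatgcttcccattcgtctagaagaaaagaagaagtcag
H2bc7/H2ac7, chr13:23574208-23574380: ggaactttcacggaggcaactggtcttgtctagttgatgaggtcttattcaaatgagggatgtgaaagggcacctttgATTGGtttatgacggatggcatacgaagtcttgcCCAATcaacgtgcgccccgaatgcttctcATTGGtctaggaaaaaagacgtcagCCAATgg
H2ac12/H2bc12, chr13:22035644-22035820: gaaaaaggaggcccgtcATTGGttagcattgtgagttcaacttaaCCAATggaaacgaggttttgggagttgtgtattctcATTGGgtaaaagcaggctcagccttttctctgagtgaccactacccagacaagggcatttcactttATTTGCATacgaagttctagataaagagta
H2bc1/H2ac1, chr13:23934157-23934436: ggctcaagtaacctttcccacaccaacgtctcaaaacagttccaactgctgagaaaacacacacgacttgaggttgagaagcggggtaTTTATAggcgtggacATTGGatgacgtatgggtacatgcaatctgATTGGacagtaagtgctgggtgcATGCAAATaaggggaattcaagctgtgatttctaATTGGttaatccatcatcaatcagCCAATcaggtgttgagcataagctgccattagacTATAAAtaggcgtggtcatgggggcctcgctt
All 10 stretches held at least 2 CAAT boxes, the testis pair included. The octamer was in 3 stretches and TATAAA in 3.

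H1, H3 and H4 genes have promoters of their own. Of each class, 2 are printed as the 150 bases before the start, read in the direction of the gene, from the same RefSeq table. H1f4 and H1f6 are the H1 gene with the highest fold enrichments and the one with no shared peak; the values that rank H1f4 highest in both replicates come from a region at its 3′ end and not from the promoter printed. H3c6 and H3c4 are a high and the lowest H3 gene. By the mean of both replicates, though not in each replicate, H4c11 and H4c2 are the highest and the lowest H4 gene. Capitals mark the same letters and 2 more: AAACACA, an element of H1 promoters, and GGTCCG, the core of the H4 promoter element that HINFP is known to bind.
H1f4, chr13:23622559-23622708, minus strand: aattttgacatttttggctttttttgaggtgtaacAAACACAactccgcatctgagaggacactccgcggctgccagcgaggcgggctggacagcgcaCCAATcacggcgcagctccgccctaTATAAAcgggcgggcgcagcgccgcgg
H1f6, chr13:23695661-23695810, plus strand: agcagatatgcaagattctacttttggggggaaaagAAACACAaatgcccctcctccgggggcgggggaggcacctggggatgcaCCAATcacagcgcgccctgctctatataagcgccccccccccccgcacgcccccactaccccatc
H3c6, chr13:23562386-23562535, minus strand: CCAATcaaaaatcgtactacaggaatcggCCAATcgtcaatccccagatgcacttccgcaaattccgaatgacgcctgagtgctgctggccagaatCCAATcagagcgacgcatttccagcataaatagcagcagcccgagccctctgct
H3c4, chr13:23575613-23575762, plus strand: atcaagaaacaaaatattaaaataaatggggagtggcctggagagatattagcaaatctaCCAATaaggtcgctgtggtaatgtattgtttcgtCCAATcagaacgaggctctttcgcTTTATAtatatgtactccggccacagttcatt
H4c11, chr13:21734884-21735033, plus strand: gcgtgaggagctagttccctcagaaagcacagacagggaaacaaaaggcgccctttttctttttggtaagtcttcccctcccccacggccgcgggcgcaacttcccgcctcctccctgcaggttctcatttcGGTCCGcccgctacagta
H4c2, chr13:23756787-23756936, plus strand: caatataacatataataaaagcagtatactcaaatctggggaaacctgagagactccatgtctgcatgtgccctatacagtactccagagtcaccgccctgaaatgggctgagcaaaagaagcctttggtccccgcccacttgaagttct

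Almost every clustered histone gene had accessible chromatin at an end. A shared region, meaning peaks of both replicates that overlap by at least 1 bp, lay within 1 kb of either end of 64 of the 67 genes (95.5%). Among all protein-coding genes the share was 47.8% (10348 of 21631). Among coding genes of at most 1 kb it was 8.88% (128 of 1441, of which 58 were histone genes). Replicate 1 alone had a peak at 64 members and replicate 2 alone at 67, beside 48.9% and 50.3% of all coding genes. By class, shared regions were found at 5 of 6 H1, 17 of 18 H2A, 17 of 18 H2B, 12 of 12 H3 and 13 of 13 H4 genes.

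The genes lie so close together that they share these regions. The 64 genes had 66 distinct regions: 32 lay near 1 member, 30 near 2 members and 4 near 3. Conversely, 33 members (49.3%) had 2 or more regions at their ends, against 18.1% of all coding genes and 3.19% of coding genes of at most 1 kb. The last share is 46 of 1441, and most of the 46 are histone genes themselves. The most at 1 gene was 4, at H2ac20 and H2ac21, H2A genes of the Hist2 cluster. For 15 of the 64 members the highest-scoring region lay outside the gene, so a region near a gene is not always on its own promoter.

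A stricter count uses only the promoter, from 250 bases before to 50 after the start. Starts were available for 62 members, all but H3c7, H2bc4, H3c1, H2bc21 and H4c14. A shared region reached the promoter of 55 of the 62 (88.7%), against 45.4% of 17274 coding genes with a start. The 7 that were not reached were H1f5, H1f6, H2ac1, H2ac4, H2bc1, H3c10 and H4c8. At 48 of the 55 the region on the promoter was also the highest-scoring region of the gene. At the other 7, which were H1f4, H2ac10, H2ac18, H2ac19, H2ac21, H3c3 and H3c13, a neighbouring region scored higher. On its own promoter H2ac18 had fold enrichments of 4.58 and 4.40, H2ac21 had 3.90 and 4.73, and H3c3 had 3.70 and 3.22. The other 4 are given with their class. Within 1 kb of the start alone, 57 of 62 members (91.9%) had a shared region, against 49.3% of coding genes.

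Peaks at histone genes were wide and rich in reads, yet low in fold enrichment. The authors' fold enrichment compares the reads at a peak's summit with the local background of the same library. That background is what the caller expected from the reads around the summit, and it is never below the genome-wide level. The 66 histone regions had median fold enrichments of 4.39 (replicate 1) and 4.38 (replicate 2). At the 12815 other regions near coding gene ends it was 7.24 and 7.47. Only 2 of the 66 regions exceeded the median of the other regions in replicate 1, and 2 in replicate 2. The reads at the summit ran the other way, with medians of 28.5 and 38 at histone regions and 20 and 29 elsewhere.

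The local background, by which fold enrichment divides, was higher at histone regions. Its medians there were 5.41 and 8.04 reads per position, or 8.00 and 6.30 times the genome-wide level. At the other regions it was 1.88 and 2.92, or 2.79 and 2.28 times that level. A background over 3 times the genome-wide level was found at 65 of 66 histone regions in each replicate, and at 43.5% and 25.6% of the others. Histone regions also had a median width of 327 bp against 245 bp. More than 1 summit was listed in 33.3% of them in replicate 1 and 53.0% in replicate 2, against 31.8% and 29.5% of the others.

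**Figure D1:**
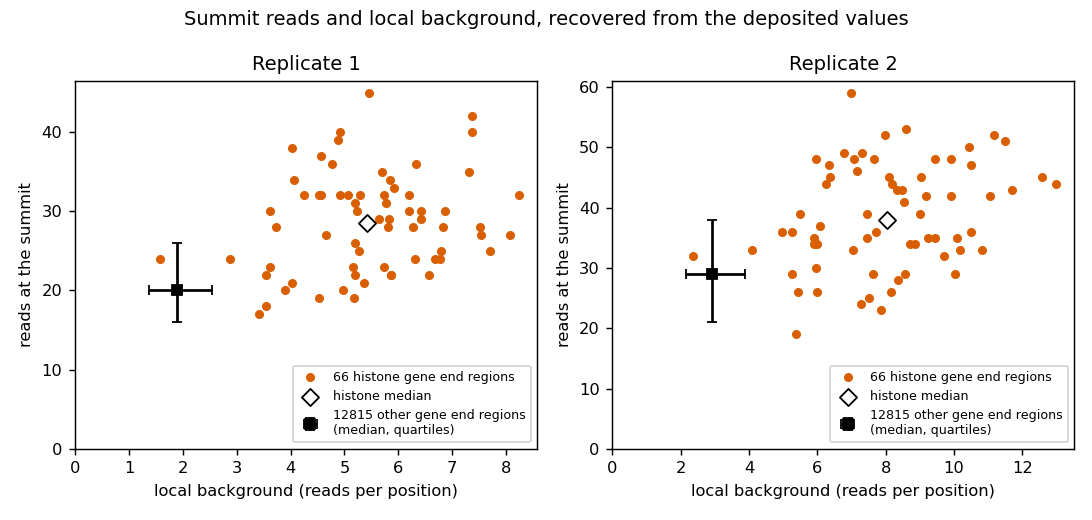
Reads at the summit (vertical) against the local background in reads per position (horizontal) in each replicate, both recovered from the deposited values. Points are the 66 histone regions, the diamond their median, and the square with bars the median and quartiles of 12815 other gene end regions, which lies to the left of 65 of the 66 points in each panel.

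The order of the members held between libraries. Over the 64 genes, taking the highest-scoring region of each, the 2 fold enrichments were within 1.2-fold of each other at 55 members and never more than 1.41-fold apart. Spearman's rho between replicates was 0.91 over the 64 genes, a description only, since genes that share a region share its value. Over the 66 regions it was 0.84, and over the other gene end regions 0.81. Of the histone peaks of replicate 1, 74 of 77 (96.1%) had a partner in replicate 2, against 90.0% of all its peaks, and of those of replicate 2, 67 of 83 (80.7%) had one in replicate 1, against 76.5%.

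**Figure D2:**
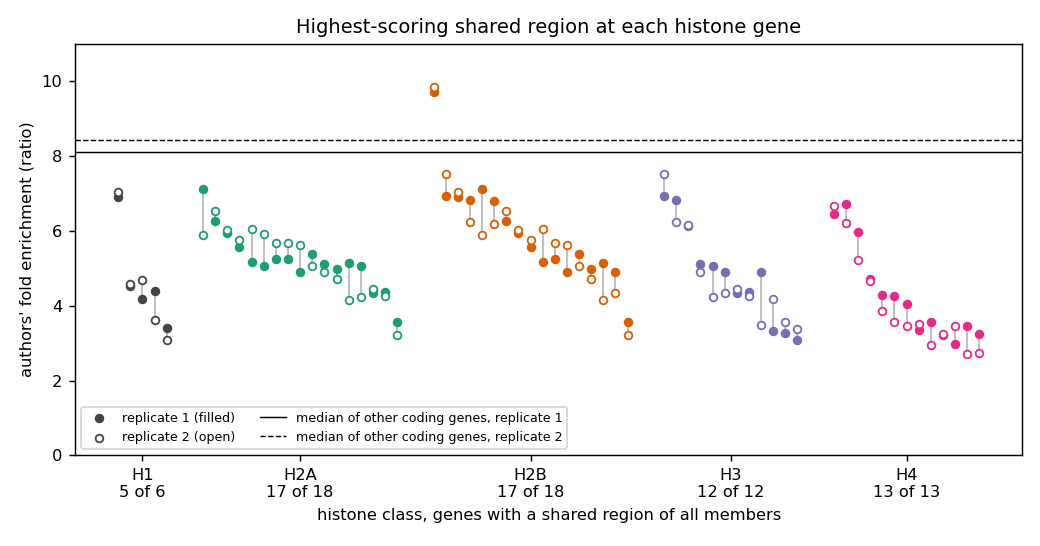
Authors' fold enrichment (vertical, a ratio) of the highest-scoring shared region at each of 64 histone genes, in replicate 1 (filled) and replicate 2 (open), by class and ordered by the mean. Lines give the medians of 10284 other coding genes, 8.11 (solid, replicate 1) and 8.44 (dashed, replicate 2), and the 1 member above both lines is H2bu2.

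Among the H1 genes, no promoter had the highest fold enrichment in both replicates. H1f4 encodes a linker histone, H1.4, that is widely made in somatic cells. Its promoter region, chr13:23622285-23622661, had fold enrichments of 7.76 and 4.46 with 38 and 30 reads at the summit, so that the replicates differed more there than at the best region of any member. In replicate 2 that is below H1f2 and H1f3. Its highest-scoring region, chr13:23621066-23621796, had 6.91 and 7.04, but it lies at the 3′ end of H1f4 and covers the start of the H2B gene H2bc6, whose best region it also is. H1f2 had 4.52 and 4.58, H1f3 had 4.18 and 4.69, and H1f1 had 3.42 and 3.08. H1f5 had 4.40 and 3.61, but at chr13:21779404-21779609, past the 3′ end of the gene. At the H1f5 promoter only replicate 2 had a peak, with a fold enrichment of 3.005 and 28 reads. H1f6, the testis gene, had no shared region.

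The H2A genes had a median fold enrichment of 5.14 and 5.63 over the 17 with a region. The highest were H2ac23 with 7.12 and 5.90, H2ac12 with 6.28 and 6.54, H2ac6 with 5.94 and 6.03, and H2ac22 with 5.58 and 5.77. Each has its best region in common with a neighbouring H2B gene, H2bc23, H2bc12, H2bc4 or H2bc22. The lowest were H2ac7 with 3.57 and 3.22, H2ac4 with 4.36 and 4.25, H2ac10 with 4.34 and 4.46, and H2ac19 with 5.05 and 4.22. The best regions of H2ac4 and H2ac10 are those of the H3 genes H3c2 and H3c8, and that of H2ac19 is the region of H3c15. On its own promoter H2ac10 had 3.41 and 2.87, and H2ac19 had 3.94 and 4.49. At H2ac7, 32 and 44 reads stood over backgrounds of 8.23 and 13.0. Those backgrounds were the highest of all histone regions in both replicates, while the reads were near the H2A medians of 32 and 47.

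The H2B genes had the highest medians of the classes, 5.58 and 5.90 over 17 genes. H2bu2, in the Hist3 locus, had the highest values of all members: 9.72 and 9.84 at chr11:58948671-58948946. Its summit held 24 and 32 reads, fewer than the median of 32 and 45 over the 64 members with a shared region. Its backgrounds, 1.57 and 2.35, were the lowest of those 64. H2bc9 followed with 6.94 and 7.52 at chr13:23543217-23543619, a region it shares with H3c7. H2bc9 had the most reads of any member in replicate 2, 59, and 40 in replicate 1. H2bc18 had 6.84 and 6.23. The low end was H2bc7, in the region of H2ac7, then H2bc3 with 4.90 and 4.35, H2bc8 with 5.14 and 4.16 and H2bc11 with 4.98 and 4.71.

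At the H2A and H2B pairs, the open region sat on the shared promoter. Of the 10 back-to-back pairs 9 had a shared region, and in each of these 9 the summit lay between the 2 starts in both replicates. In 8 of the 9 the region covered the whole stretch, and in the H2bc13/H2ac13 pair it covered 98.2% of it. The 9 regions had fold enrichments of 3.57 to 7.12 in replicate 1 and 3.22 to 6.54 in replicate 2, and 30 to 45 and 43 to 53 reads. The ends of that range are 2 of the printed stretches: H2bc23/H2ac23 had the highest fold enrichment in replicate 1, and H2bc7/H2ac7 the lowest in both. The pair without a shared region was H2bc1/H2ac1.

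All 12 H3 genes had a shared region, with medians of 4.90 and 4.30. Read by highest-scoring region, H3c7 had the values of H2bc9, in a region 433 bp outside H3c7. Inside H3c7, at chr13:23544263-23544699, another region had 6.41 and 6.42. H3c13 had the highest-scoring region of H2bc18, with 6.84 and 6.23 at chr3:96269395-96269867. On its own promoter, at chr3:96268486-96269052, H3c13 had 5.43 and 4.23. H3c6 had 6.14 and 6.16 in a region near no H2A or H2B gene, and H3c14 had 5.12 and 4.91. The lowest was H3c4, with 3.09 and 3.39, which had 27 and 45 reads over backgrounds of 8.07 and 12.6. H3c6, with 28 and 39 reads, stood over 3.73 and 5.49, so the printed H3 genes differed more in background than in reads. H3c11 had 3.28 and 3.57, H3c1 had 3.34 and 4.18, and H3c10 had 4.90 and 3.48 in a region that did not reach its promoter.

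The H4 genes, all 13 with a shared region, had the lowest medians, 4.04 and 3.51, and also the fewest reads, 24 and 35 at the median. No test was made between classes. H4c11 had 6.46 and 6.68, H4c3 had 6.71 and 6.21, H4c14 had 5.96 and 5.22 and H4c18 had 4.72 and 4.65. The H4c14 values are from a region 450 bp outside the gene. A region that overlaps H4c14 had 4.95 and 5.37. The lowest were H4c2 with 3.26 and 2.72, H4c17 with 3.46 and 2.71, H4c1 with 2.99 and 3.46 and H4c8 with 3.21 and 3.25. The H4c8 region lies 221 bp past the 3′ end of the gene and did not reach its promoter. H4c11 and H4c2, whose promoters are printed, had the same number of reads in replicate 1, 24, over backgrounds of 2.87 at H4c11 and 6.68 at H4c2. In replicate 2 they had 33 and 29 reads over 4.09 and 10.0. On promoters alone the order of the class medians in replicate 1 was H2B 5.58, H2A 5.10, H3 4.36, H1 4.35 and H4 4.04, and in replicate 2 it was 5.90, 5.34, 4.23, 4.52 and 3.51.

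The 3 genes without a shared region are the 3 testis histones named in the background. Each had a peak in replicate 2 and none in replicate 1. H2bc1 and H2ac1 lie together at the far end of the Hist1 span and share 1 peak, chr13:23933812-23933929, inside H2bc1, with a fold enrichment of 7.90 and 17 reads. The background there was 1.28, the genome-wide level of replicate 2, whereas at the other 64 members it ran from 2.35 to 13.0. The peak at H1f6, chr13:23697531-23697658, had a fold enrichment of 4.82, 27 reads and a background of 4.81, and lies past the end of the gene towards H4c3. The nearest shared region was 1603 bp from H1f6, 47924 bp from H2bc1 and 48636 bp from H2ac1. With peaks in 1 library only, accessibility at these genes was not detectable in both replicates at this depth.

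Where a region reached the promoter, its summit lay just before the start in most H1, H2A, H2B and H3 genes, while H4 genes were split. Over the 55 members the median summit position was -81 bp in replicate 1 and -74 bp in replicate 2, where negative values are before the start. For 7788 other coding genes it was -54.5 and -54 bp. The summit was before the start at 48 of the 55 in replicate 1 and 47 in replicate 2 (87.3% and 85.5%), against 77.1% and 78.6% of the others. Outside the H4 class it was before the start at 43 of 44 members in each replicate. At 6 of 11 H4 genes in replicate 1 and 7 of 11 in replicate 2 it was not, and the H4 medians were 9 and 45 bp past the start. The summit lay past the start in both replicates at H4c4, H4c9, H4c11, H4c12 and H4c18, from 9 bp at H4c9 in replicate 1 to 129 bp at H4c12 in replicate 2. No test was made between classes. Back-to-back genes share 1 summit, which lies before both starts.

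**Figure D3:**
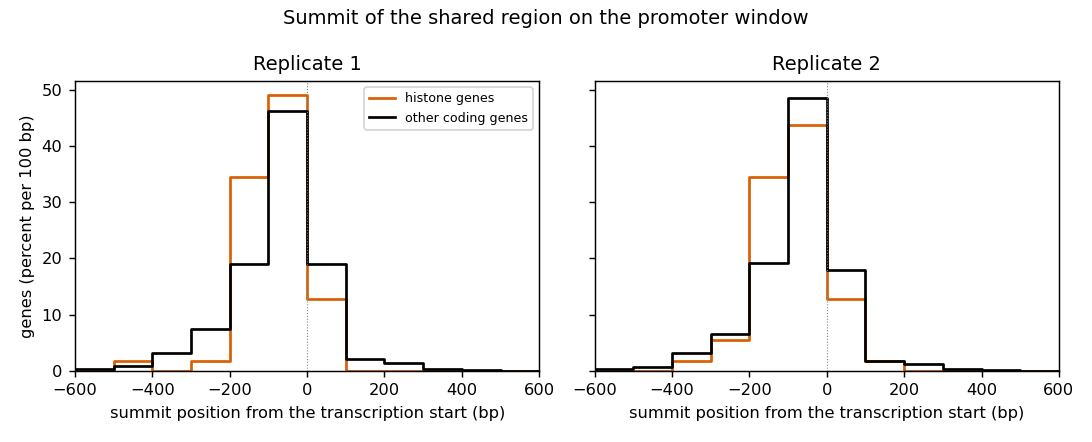
Position of the peak summit from the transcription start in bp (horizontal) against the percent of genes per 100 bp (vertical), for 55 histone genes and 7788 other coding genes, in each replicate. Both curves peak in the 100 bp before the start, and the histone curve is higher than the other from 200 to 100 bp before it.

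The histone classes differed in the letters of their promoters. The 250 bases before the start were searched on both strands, in 62 members and in 17274 coding genes. A match describes the letters and is not evidence of a bound factor. The CAAT box was in 51 of 62 members (82.3%), against 39.9% of all promoters. It was in all 6 H1, all 18 H2A and all 16 H2B promoters, in 8 of 10 H3 promoters and in 3 of 12 H4 promoters. In H1f3, H1f4 and H1f6 it began at -51, -52 and -65, and NFYA, NFYB and NFYC form the factor known to bind it. TATAAA was in 29 of 62 (46.8%), against 13.8% of all. These matches could lie anywhere in the 250 bases, so they need not be working TATA boxes. At H2bc7, H2bc12 and H2bc15 the match was not in the stretch shared with the paired H2A gene.

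Other elements were found mainly in 1 class or in the H2A and H2B pair of classes. The octamer was in 7 of 18 H2A and 7 of 16 H2B promoters and in no H1, H3 or H4 promoter, beside 1.82% of all promoters; back-to-back genes share their matches. GGTCCG (reverse complement CGGACC) was in 9 of 12 H4 promoters (75%), against 9.77% of all, and in 1 H2B and 1 H3 promoter. The 3 H4 promoters without it before the start were those of H4c1, H4c2 and H4c8. The H4c8 stretch ends in GGTCC right before the start, so a match that runs past the start would have been missed. AAACACA (reverse complement TGTGTTT) was in 5 of 6 H1 promoters, all but H1f1, and in 2 H2A and 2 H2B promoters, against 6.44% of all. Its letters were chosen after the H1 promoters had been read, so the H1 count is a description of these sequences. The H1f6 promoter, which no shared region reached, had both the CAAT box and AAACACA, and the stretch between the testis pair had the CAAT box, the octamer and TATAAA.

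**Figure D4:**
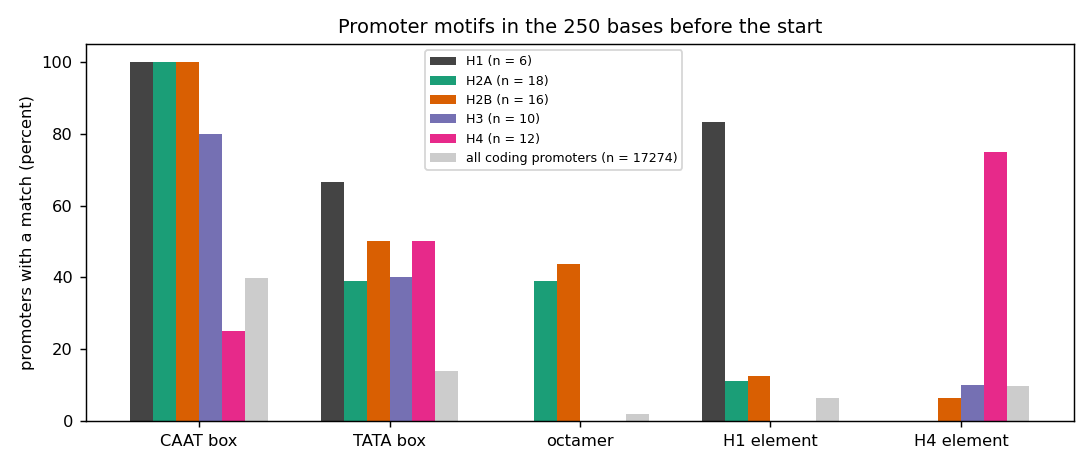
Percent of promoters with a match (vertical) for 5 sequence elements (horizontal), by histone class and in 17274 coding promoters (grey). The CAAT box bars of H1, H2A and H2B reach 100%, the H4 element stands at 75% in H4, and the octamer appears in H2A and H2B.

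Some members are near copies of each other. In 5 pairs of promoters, 10 members in all, at least 75 bases in a row were identical within the 300 bases compared: H2bc23 and H4bc24 (300 bases), H4c17 and H4c18 (285), H3c14 and H3c15 (231), H2ac18 and H2ac19 (219) and H2ac23 and H2ac24 (200). All 10 had shared regions. The sources used here do not say how reads that fit both copies were placed, so the values of these 10 genes are uncertain as to which copy they measure. Only the promoter windows of the 62 members with a start were compared. Likeness inside the genes, or in shorter runs, was not measured, so other members may be affected too.

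Along chromosome 13 the members form 4 blocks separated by more than 100 kb, within a span of 2219.2 kb (chr13:21715711-23934913). The block nearest the start of the chromosome, of 121.82 kb, has 18 members, and all had a shared region. The next, of 8.537 kb, has 5 of 5. The block of 233.369 kb has 29 members, 28 with a shared region, and the fourth is the testis pair. The whole span had 89 shared regions, and 48 of them were within 1 kb of a member's end. In the 50.308 kb of the Hist2 cluster all 10 members had a region, and in the Hist3 locus and at H4f16 the remaining 3 did.

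The genes between the blocks were mostly without a shared region. Of the 50 other coding genes in the Hist1 span, 49 lie farther than 5 kb from any member, and 36 of these are vomeronasal receptor genes, none of which had a shared region. These receptor genes are short, and among coding genes of at most 1 kb that are not members the share was 5.07% (70 of 1380). Only 2 of the 49 had a shared region, beside 47.8% of all coding genes: the zinc finger gene Zfp322a with 10.7 and 12.1, and Abt1 with 8.88 and 7.52. The 1 nearby gene, Hfe, which regulates iron uptake, had 5.60 and 6.39. Within the 233.369 kb block, the 8 shared regions farther than 1 kb from any member's end had medians of 5.60 and 5.72. At the 28 member regions the medians were 4.28 and 4.17. Of these 8, 1 lies inside the long gene H2bc6, at a second start listed for it, with 5.29 and 5.06. A further 3 lie at the ends of Hfe.

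**Figure D5:**
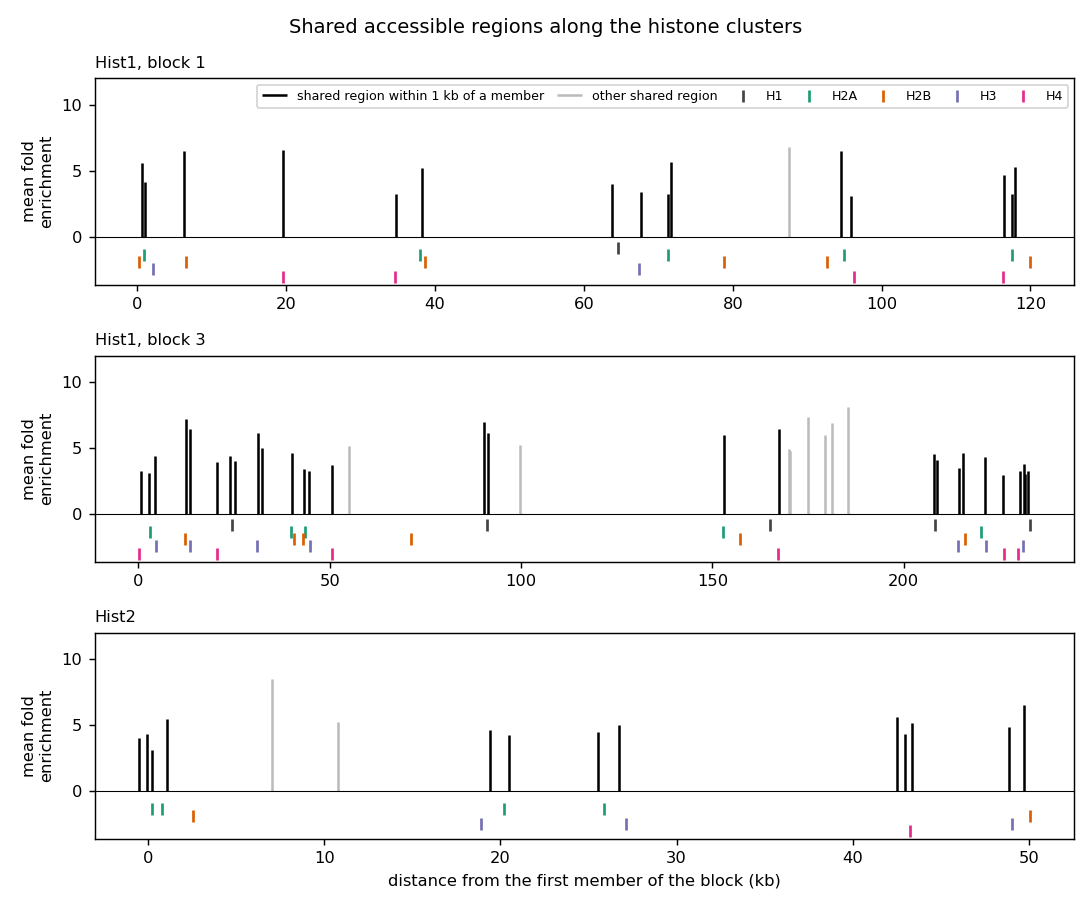
Shared regions along 2 blocks of Hist1 and along Hist2, with distance in kb (horizontal) and mean fold enrichment of the 2 replicates (vertical). Black lines are regions within 1 kb of a member's end, grey lines other regions, and ticks below mark the midpoints of the genes by class. Most ticks stand near a black line. Exceptions include the long genes H2bc6, H2bc22 and H2bc4, and H1f6, which has no shared region.

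Histone genes that the rule leaves out had regions of higher fold enrichment than the clustered genes. Most of them are known to be transcribed through the cell cycle or outside S phase and to give polyadenylated mRNAs. Of 11 such genes 8 (72.7%, against 47.8% of all coding genes) had a shared region, with medians of 7.01 and 7.15, below the 8.11 and 8.44 of other coding genes, and backgrounds of 3.07 and 4.28. Cenpa, the centromeric H3, had 11.2 and 12.8, H2az2, an H2A.Z gene, had 9.97 and 10.0, and H1f0, an H1 made in cells that have stopped dividing, had 8.74 and 6.04. No shared region was found at H1f10, H3f3b or Macroh2a2.

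Most genes that transcribe clustered histone genes or process their mRNAs had a shared region, 21 of 22 (95.5%), with medians of 7.82 and 8.43, near those of other coding genes. The highest were Cstf2t with 13.4 and 13.0 and Cstf2 with 10.0 and 13.4, which encode cleavage factors, and Lsm10, a U7 small nuclear RNP protein, with 14.3 and 11.5. Casp8ap2 had 10.7 and 12.5 and Hinfp had 11.6 and 10.9. The exception was Nfyc. All 20 histone chaperone and deposition genes had a region, led by Cabin1, Anp32e and Nap1l4, and so did 23 of 24 genes of S phase and replication, led by Ccna2, Mcm3 and Cdc6. Lig1, a DNA ligase, was the exception. All 3 shares stand beside the same 47.8% of coding genes. Median backgrounds in these 3 lists were 2.09 to 2.28 in replicate 1 and 3.07 to 3.50 in replicate 2, below the medians of the clustered genes, 5.55 and 8.10.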

How the data were processed

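The 2 ATAC-seq libraries, 1 list of peaks each, were analysed, with samples grouped by their titles. Per the submitters' processing notes the tools were Trimmomatic, BWA 0.7.17, Picard 2.8.1, HOMER 4.9.1 and MACS2, and the build mm10. Their settings, read shifting, duplicate removal and mapping filters are not given in the sources used here, and all of them affect which weak peaks pass. The deposited fold enrichment is the authors' ratio of summit reads to local background. The deposited −log10 p and −log10 q are the authors' values per summit, and the lowest −log10 q was 3.00 in both lists. The deposited score is 10 times the −log10 q, cut to a whole number. These values describe peaks within a list only.

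Summits of 1 peak were joined, and the best-scoring summit gave its values. The 13 summits of replicate 1 that lack a position counted only towards their peak. Summit reads and background were recovered by assuming the fold is (reads + 1) over (background + 1) and the p is Poisson. The deposited −log10 p came back within 0.002 at 100% of best-scoring summits, the only ones checked. The fewest reads at a best-scoring summit were 7 in replicate 1 and 9 in replicate 2, which sets the precision. Gene positions, starts and sequences are from RefSeq for GRCm38.p6, the assembly of mm10. Scripts ran in Python 3.11.15 with pandas 2.3.3, numpy 2.4.6 and scipy 1.17.1 and were tested on simulated data.

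The members and lists were chosen with earlier results of these data known. Genes are named by rule: the 4 members of each class with the highest mean fold enrichment and up to 4 with the lowest. All members with a peak in 1 replicate only or none are named too. So are the 3 highest of each other gene list and those without a shared region. The cell type markers and the genes between the blocks were not named by this rule. Further genes, such as those on the promoter comparison, were named after their values were seen. Windows, overlap, score, single replicates and symbols were varied. Neither contrasts nor chance tests were computed.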

Additional observations from a re-analysis of the deposited data

How the results depend on the processing

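The number of histone genes with a shared region, 64 of 67, ranged from 55 to 67 when the window was 500 bp (62, beside 44.4% of all coding genes) or 2 kb (65, 52.3%), when peaks had to overlap by 50% of each other (56, 44.5%), when either replicate sufficed (67, 51.2%), when only the start (57 of 62, 49.3%) or the promoter (55 of 62, 45.4%) counted, or with the newer symbols only (60 of 62, 47.8%). Leaving out 1 replicate gave 64 to 67 genes (48.9% and 50.3% of all) and 77 to 83 regions. Keeping the better-scoring 50% of each list left 42 genes, beside 34.8% of all coding genes, and 27 of the 66 regions. The median fold enrichment, 4.93 as the mean of both replicates, was 4.54 over all summits and 5.55 in the better-scoring 50%, and 4.91 to 5.06 without 1 replicate. The background at histone regions was 2.82 times that at other gene end regions, 3.01 times at regions near 1 member, 2.44 times in the better-scoring 50%, and 2.76 to 2.87 times without 1 replicate. The cause of these shifts was not tested, beyond the smaller number of peaks that a score limit leaves. The promoter, newer-symbol and background alternatives, and the fold enrichment of each replicate alone, were added after the data had been seen.

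No paired analysis was possible because the 2 libraries form 1 group and no contrast was made. Replicate 2 had more reads per position, and the 3 testis genes were called in it alone. A gene without a peak is not shown to be closed: a weak site in a region of high background needs more reads to be listed.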
